A study of Mus musculus with 6 samples.

Results

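The Hox genes described here are the cluster genes measured by the array: probe sets annotated to exactly 1 gene whose symbol is a Hox cluster letter and number, with antisense and opposite-strand transcripts left out and each gene read from its brightest probe set. They were chosen by name, not by value. Of 39 Hox cluster genes in the RefSeq mouse table, 33 have such a probe set, out of 18193 genes on the array: 9 in HoxA, 9 in HoxB, 7 in HoxC and 8 in HoxD. Hoxb8 and Hoxd4 lie on probe sets that name several genes, and the other 4 are not analysed here.

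Wild-type mouse embryos of strain FVB/N were taken at embryonic day 13, and the neck of the bladder with the urethra was parted by trypsin and a needle into epithelium and mesenchyme. Epithelium (called urothelium in the sample titles) gave replicates numbered 1, 2 and 5, and mesenchyme gave replicates numbered 1, 2 and 3. Each was hybridised to its own array, from RNA amplified in 2 rounds. The embryos carried no mutation and received no treatment, and no sample was a pool. Per the labels their sex is unknown, and the labels differ on whether the cut was made above, below or at the ureters. No label says that the arrays came from different embryos, so p-values measure the spread between these samples, which may be technical.

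Hox genes encode homeodomain transcription factors that give cells their position along the body and limb axes. In mouse they lie in 4 clusters, and genes at the same place in different clusters form paralogue groups numbered up to 13. Low-numbered genes at one end of a cluster are known to act from the hindbrain back, while high-numbered genes at the other end act in the tail, the distal limb and the urogenital and hindgut outlets, where Hoxa13 and Hoxd13 are known regulators of cloacal derivatives and Hoxb13 of the prostate.

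Values below are normalized signals: the deposited signal plus 16, quantile normalized on the log2 scale and turned back with 16 subtracted. Differences are epithelium minus mesenchyme in log2 units with the standard error from limma, so positive differences mean more signal in epithelium. A gene was tested if its mean log2 signal over all 6 arrays lay above the 40th percentile of probe sets, a level of 96.3 signal units, and called at a Benjamini-Hochberg adjusted p under 0.05 over all genes tested. Of the 33 Hox genes, 27 were tested. Hoxa4, Hoxa7, Hoxb1, Hoxb7, Hoxc13 and Hoxd12 lay below that level. Signals of different probe sets are not on a common scale, so levels are compared between arrays and never between genes.

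The 2 layers carried their labelled markers. The summed signal of 6 epithelial markers (Cdh1, Epcam, Krt8, Krt18, Foxa1 and Grhl2) ranged from 137417 to 167603 in epithelium and was 53369, 11585 and 2242 for mesenchyme 1, 2 and 3. Summed signals of 7 mesenchymal markers, such as Vim and Pdgfra, were 27802 to 43849 on epithelium and 158901 to 176974 on mesenchyme. Single markers differed among mesenchyme 1, 2 and 3. Twist1 read 467, 3389 and 4294 there and 333 to 724 on epithelium. Pdgfrb read 1566, 5984 and 9159 on mesenchyme, and Col1a1 27273, 5443 and 5090. Of the 7, 3 were called higher in mesenchyme with 6 arrays and 7 without mesenchyme 1. Mesenchyme 1 stood apart from the other arrays: it correlated at 0.784 and 0.755 across genes with mesenchyme 2 and 3, which correlated at 0.981 with each other. All 4 liver markers (Alb, Afp, Ttr and Apoa1) were over 4-fold higher there than on any other array, with a sum of 200993 against 137 to 855, as were 3 of 3 heart, 3 of 3 pancreas, 2 of 3 epidermis and 1 of 2 lung markers. The Hox differences are therefore given with and without that array. Markers of the mesonephric and paramesonephric ducts, whose epithelia also express Hox genes, had sums of 628 to 910 on epithelium and 224 to 444 on mesenchyme over 4 of 5 genes on the array, of which 1 was tested and 0 were called.

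**Figure D1:**
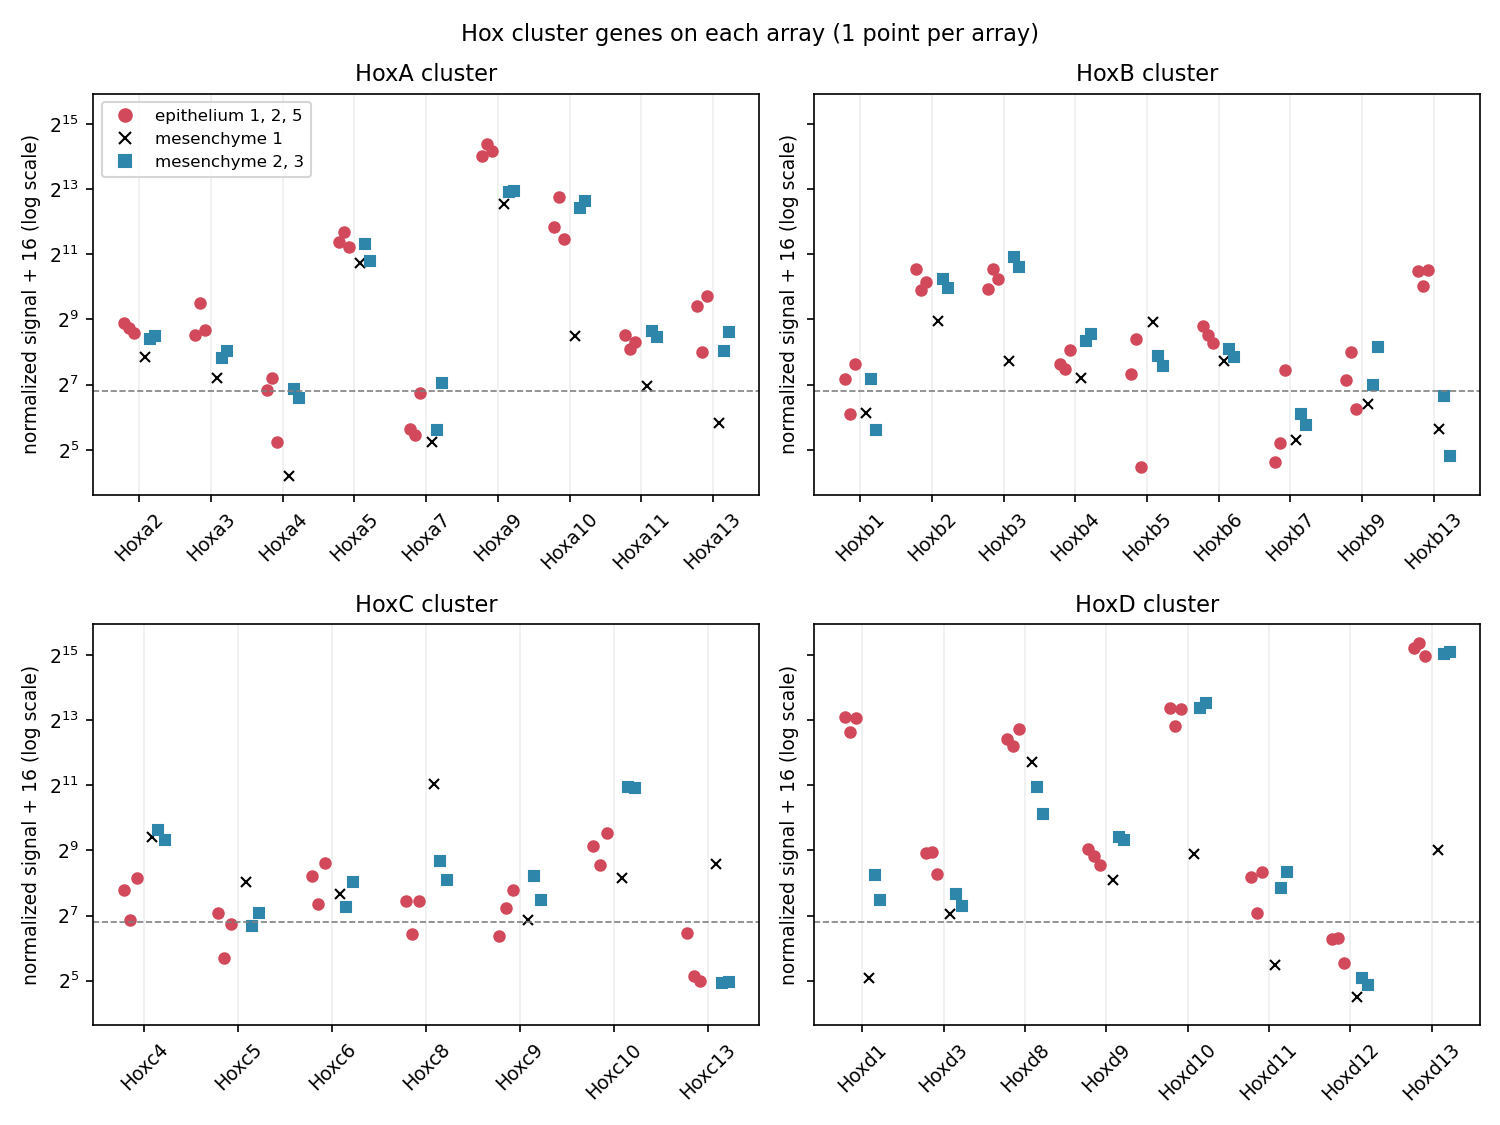
Normalized signal plus 16 (log scale) of the 33 Hox cluster genes, in panels by cluster and ordered by paralogue number. Each point is 1 array (circles, epithelium 1, 2 and 5; crosses, mesenchyme 1; squares, mesenchyme 2 and 3), and the dashed line is the level of the filter on low signals. Hoxd1 and Hoxb13 part the layers most widely, and Hoxd13 reads 504 on mesenchyme 1 against 31870 to 42463 on the other 5 arrays.

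Hoxd1 and Hoxb13, from opposite ends of 2 clusters, and Hoxa9 were higher in epithelium with all 6 arrays, and no Hox gene was called higher in mesenchyme. Hoxb13 passed the filter through the epithelial arrays alone. These 3 of 27 tested genes stand beside 1.95% of all 13717 genes tested that were called higher in epithelium, and the 0 of 27 beside 4.03% called higher in mesenchyme. At an unadjusted p under 0.05 in limma, 6 Hox genes were higher in epithelium and 2 in mesenchyme. Over all genes tested, more genes reached that p higher in mesenchyme than higher in epithelium. The unadjusted counts here, and those for HoxC and the gene lists below, stand without a share over all genes. They do not by themselves show an excess. Without mesenchyme 1, Hoxd8 joined Hoxd1, Hoxb13 and Hoxa9 in epithelium (4 of 26, where 6.37% of 13587 genes were called). Hoxc4 and Hoxc10 were then called higher in mesenchyme (2 of 26, where 8.17% were called). In bulk samples, fewer cells expressing a gene and less RNA per cell cannot be told apart.

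Hoxd1 is the lowest-numbered gene of HoxD, at the end of the cluster opposite Hoxd13, and is known from sensory neurons. It read 8645, 6345 and 8526 on epithelium 1, 2 and 5 and 17.9, 290.2 and 163 on mesenchyme 1, 2 and 3. The epithelial arrays lay close together and far above all mesenchymal arrays, among which mesenchyme 1 was lowest. The difference was 5.98 ± 0.771 (SE, n = 3 arrays per layer, 63.2-fold, adjusted p = 0.00803 in limma), and 5.16 ± 0.322 without mesenchyme 1 (35.8-fold, adjusted p = 0.000607). The signal on mesenchyme 1 lay below the filter level, so the size with 6 arrays depended on the offset. It was 6.34 with an offset of 1 and 5.38 with an offset of 64.

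Hoxd13, at the other end of the same cluster, read 37929, 42463 and 31870 on epithelium and 504, 33373 and 34725 on mesenchyme. Apart from mesenchyme 1, the 2 layers overlapped. Its difference was 2.14 ± 1.5 with 6 arrays (adjusted p = 0.482 in limma) and 0.13 ± 0.149 without mesenchyme 1 (adjusted p = 0.662). The bases just upstream of both genes are shown because they start the ends of the cluster whose layer differences are set side by side here. They are the 250 bases before the RefSeq start (GRCm38.p6, plus strand), at chr2:74762730-74762979 for Hoxd1 and chr2:74667975-74668224 for Hoxd13, with matches to the motifs searched in capitals.
Hoxd1: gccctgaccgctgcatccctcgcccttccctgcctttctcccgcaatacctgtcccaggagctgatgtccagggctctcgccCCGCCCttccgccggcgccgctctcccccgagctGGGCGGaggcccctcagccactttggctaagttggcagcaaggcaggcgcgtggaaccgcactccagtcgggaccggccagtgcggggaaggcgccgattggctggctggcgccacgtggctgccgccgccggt
Hoxd13: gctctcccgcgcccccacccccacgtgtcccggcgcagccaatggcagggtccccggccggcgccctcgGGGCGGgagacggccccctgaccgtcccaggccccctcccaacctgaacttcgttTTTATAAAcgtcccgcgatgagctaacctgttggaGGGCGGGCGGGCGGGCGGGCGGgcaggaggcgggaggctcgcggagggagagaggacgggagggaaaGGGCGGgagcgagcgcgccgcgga
The motifs searched on both strands were TATAAA for the basal promoter box, GGGCGG for the GC box, TTTATG for caudal-type factors, TGACAG for Meis-type factors and TGATNNAT for Pbx-Hox pairs. The Hoxd1 window held 2 GC boxes and no match to the others, and the Hoxd13 window held 7 GC boxes and 2 matches to TATAAA, some of them overlapping. The G and C share was 71.6% and 74.4%, against a median of 59.2% over 21 Hox windows and 52.4% over all 32841 windows. Only 19 of the 33 Hox genes had such a window in the sequences used, so the Hox shares do not cover all of them. Of the same windows, TATAAA was found in 2 of 21 for Hox genes and 12.4% of all, GGGCGG in 8 and 32.7%, TTTATG in 3 and 10.8%, TGACAG in 2 and 15.9%, and TGATNNAT in 3 and 7.69%. A match describes letters and does not show binding.

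Hoxb13, the highest-numbered gene of HoxB and a regulator of prostate and tail development, read 1421, 1038 and 1455 on epithelium and 34.1, 84.7 and 11.9 on mesenchyme. All 3 mesenchymal signals lay below the filter level, so the gene was tested through its epithelial signal. Its fold change has no measured base and is not given. The difference on the log2 scale with the offset of 16 was 4.65 ± 0.545 (adjusted p = 0.00599 in limma) and 4.67 ± 0.545 without mesenchyme 1 (adjusted p = 0.00217). Its size depended on the offset: 5.27 with an offset of 1 and 3.71 with an offset of 64. With all arrays and the filter at the 60th percentile, Hoxb13 was not tested. Without mesenchyme 1 it was tested with that filter and called (adjusted p = 0.00191 in limma).

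The epithelial markers differed among the mesenchymal arrays: 5 of 6 were highest on mesenchyme 1 and lowest on mesenchyme 3 (Cdh1 8160, 770 and 30.1), and Grhl2 read 565, 675 and 230. Between mesenchyme 2 and 3, Hoxd1 (290.2 and 163) and Hoxb13 (84.7 and 11.9) were both higher on mesenchyme 2, the array with more epithelial marker signal. On mesenchyme 1, with the highest epithelial marker signal of the 3, Hoxd1 (17.9) was lowest and Hoxb13 (34.1) lay between the others. All these Hoxb13 signals, and Hoxd1 on mesenchyme 1, lay below the filter level, so their order between single arrays may be noise. The part of epithelial RNA in these mesenchymal signals was not tested.

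Hoxa9, a posterior HoxA gene known from blood stem cells, read 16496, 21527 and 18216 on epithelium and 5958, 7685 and 7912 on mesenchyme. Both layers had high signals on every array and did not overlap. The difference was 1.38 ± 0.213 (2.61-fold, adjusted p = 0.0135 in limma) and 1.25 ± 0.181 without mesenchyme 1 (adjusted p = 0.00466). Its second probe set pointed the same way, at 1.03 with 6 arrays. Centring the arrays on their medians instead of quantile normalization ended the call (1.61, adjusted p = 0.0701).

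All 3 calls with 6 arrays ended when epithelium 1 was left out, with adjusted p in limma of 0.0561 for Hoxd1, 0.0501 for Hoxb13 and 0.0708 for Hoxa9. Without epithelium 5 it was 0.0515 for Hoxd1 and 0.0653 for Hoxa9, and without mesenchyme 2 it was 0.0618 for Hoxa9, while the differences stayed between 5.16 and 6.61 for Hoxd1, 4.17 and 5.09 for Hoxb13 and 1.25 and 1.48 for Hoxa9 over the 6 arrays left out in turn. With mesenchyme 1 left out as well, Hoxd1 and Hoxb13 stayed past the threshold without any 1 further array (adjusted p of at most 0.00923 and 0.0189), and Hoxa9 did not without mesenchyme 2 or 3 (0.0629 and 0.0631). Leaving out mesenchyme 2 or 3 there leaves 1 mesenchymal array, which is assumed to vary like the epithelial ones, so those fits say little about stability.

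Hoxd8 read 5478, 4658 and 6706 on epithelium and 3363, 1965 and 1092 on mesenchyme. The layers did not overlap, and mesenchyme 1 lay nearest to the epithelial arrays. Its difference was 1.51 ± 0.435 with 6 arrays (adjusted p = 0.101 in limma) and 1.94 ± 0.328 without mesenchyme 1 (3.84-fold, adjusted p = 0.00834). A second probe set, which can match several transcripts, read 3313 to 4072 on epithelium and 3996, 2766 and 1677 on mesenchyme, so that mesenchyme 1 lay within the epithelial range. When epithelium 1 or epithelium 5 was left out of the 6 arrays, that second set became the brighter one and the difference was 0.48 or 0.47 (adjusted p = 0.726 and 0.697). With mesenchyme 1 and epithelium 5 both left out, that second set was the brighter one and the difference was 0.78 (adjusted p = 0.22). Without mesenchyme 1 and 3 it was 1.53 (adjusted p = 0.0954).

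Hoxc10, a posterior HoxC gene known from the hindlimb and lumbar spinal cord, read 541, 363 and 730 on epithelium and 269, 1940 and 1908 on mesenchyme. Mesenchyme 1 lay below all epithelial arrays and mesenchyme 2 and 3 above them. The difference was -0.92 ± 0.773 with 6 arrays (adjusted p = 0.559 in limma) and -1.90 ± 0.347 without mesenchyme 1 (3.74-fold higher in mesenchyme, adjusted p = 0.0113).

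Hoxc4 read 205, 99.3 and 267 on epithelium and 659, 781 and 616 on mesenchyme, with no overlap and mesenchyme 1 among its group. It missed the threshold with 6 arrays (-1.85 ± 0.443, adjusted p = 0.0573 in limma) and passed without mesenchyme 1 (-1.92 ± 0.454, adjusted p = 0.0321). The call of Hoxc4 without mesenchyme 1 also ended with no normalization between arrays (adjusted p = 0.0550) and with no filter on low signals (0.0584), and the gene was not tested with the filter at the 60th percentile. The calls of Hoxc4 and Hoxc10 ended when epithelium 1 (adjusted p = 0.0857 and 0.0531), mesenchyme 2 (0.271 and 0.104) or mesenchyme 3 (0.174 and 0.104) was left out as well, the last 2 again with 1 mesenchymal array.

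**Figure D2:**
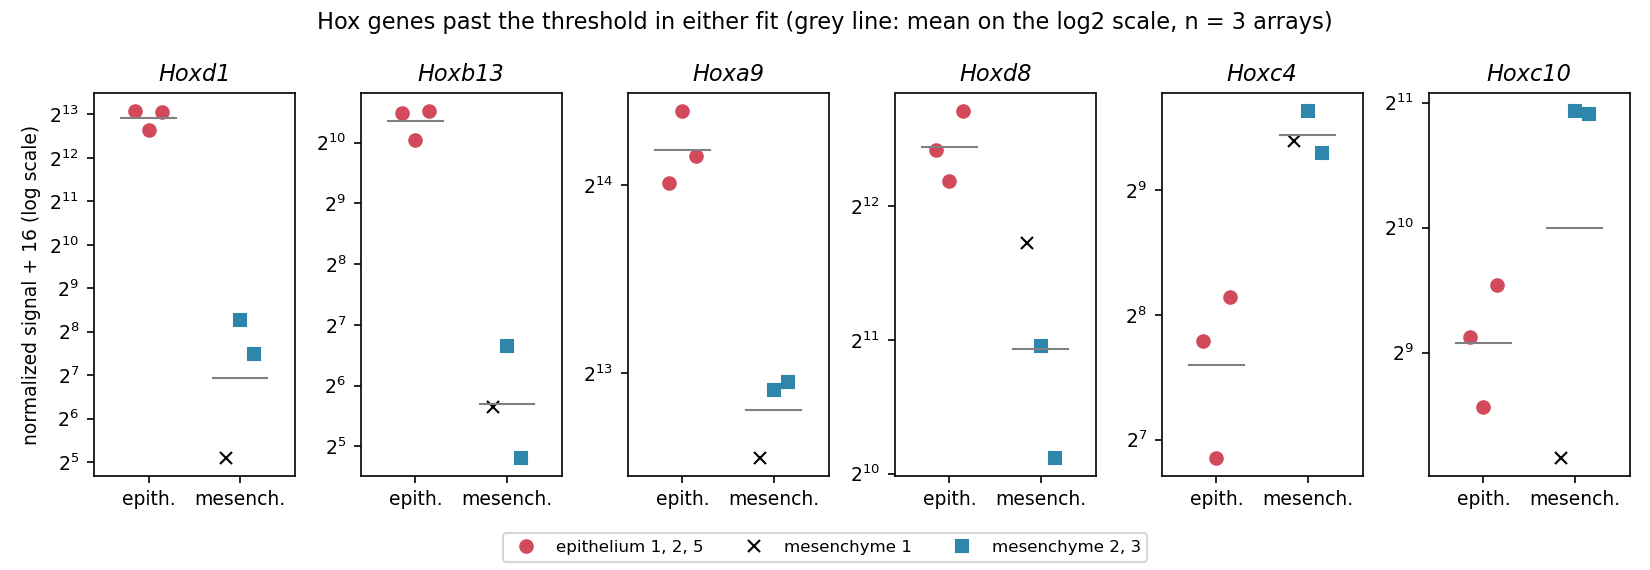
Normalized signal plus 16 (log scale, a separate range per panel) on each array for the 6 Hox genes past the threshold with or without mesenchyme 1, with grey lines at the mean log2 value of 3 arrays. Hoxd1, Hoxb13, Hoxa9 and Hoxd8 lie higher in epithelium on every array, Hoxc4 lies higher in mesenchyme, and Hoxc10 does so on mesenchyme 2 and 3 but not on mesenchyme 1.

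By cluster, the tested HoxC genes leaned to mesenchyme and the tested HoxA genes to epithelium, with and without mesenchyme 1. In HoxC, 5 of 6 genes had negative differences with a median of -0.84, and 4 of 5 with a median of -1.27 without mesenchyme 1. In HoxA, 7 of 7 were positive with a median of 0.83, and 5 of 7 with a median of 0.39 without that array. HoxB and HoxD depended on the array. The HoxB median was 0.48 with 6 arrays and -0.44 without mesenchyme 1, and the HoxD median 1.38 and 0.13. Over all genes tested the median was 0.12 with 6 arrays and 0.02 without mesenchyme 1, and over the 27 Hox genes 0.48, or -0.06 over 26 without it. Differences were positive for 57.4% of all genes tested with 6 arrays and for 51.6% without mesenchyme 1. In HoxC 0 of 6 genes were called with 6 arrays by limma, 2 having an unadjusted p under 0.05. Markers of other cell types were also higher in mesenchyme: summed signals of 5 neuron markers were 502 to 980 on epithelium and 24336 to 34269 on mesenchyme, with 4 called lower in epithelium, and those of 5 endothelial markers 501 to 1650 and 10348 to 13747, with 3 called. Their part in the HoxC values was not tested. These medians are descriptions of few genes and carry no test.

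The arrays of the layers did not overlap for 10 of the 27 genes. Epithelium lay above for 8 of them (Hoxa2, Hoxa3, Hoxa9, Hoxb6, Hoxb13, Hoxd1, Hoxd3 and Hoxd8), where 15.5% of all genes did so, and below for Hoxc4 and Hoxc8, where 13.2% did. Without mesenchyme 1 the same description held for 8 of 26 above, beside 23.1% of all genes, and for 7 below, beside 22.3%.

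Along the clusters, groups 1 to 3, groups 4 to 8 and groups 9 to 13 had medians of 0.85, -0.31 and 0.73 over 6, 9 and 12 tested genes. Without mesenchyme 1 these were 0.65, -0.17 and -0.26, so the posterior median changed sign with that array. The central median was 0.48 with the filter at the 60th percentile and 0.02 with no filter.

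In groups 1 to 3, all 6 tested genes had positive differences with 6 arrays and 5 of 6 without mesenchyme 1. Of all genes tested, 57.4% and 51.6% did. Apart from Hoxd1, Hoxd3 was at 291 to 476 on epithelium and 116 to 188 on mesenchyme (1.38 ± 0.415, adjusted p = 0.116 in limma, and 1.25 without mesenchyme 1) and Hoxa3 at 355 to 704 and 131 to 248 (1.21 ± 0.448, adjusted p = 0.191, and 0.99). Other probe sets of Hoxa3 were at 0.77, 0.16 and, for one below the filter level, -0.84. Hoxa2, the patterning gene of the second pharyngeal arch, read 366 to 464 and 212 to 345 (0.50 ± 0.371, and 0.30 without mesenchyme 1), and Hoxb2 943 to 1477 and 483 to 1185 (0.48 ± 0.424, and 0.11). Hoxb3 read 960, 1467 and 1193 on epithelium and 197, 1934 and 1542 on mesenchyme, so its difference turned from 0.48 to -0.55 without mesenchyme 1. Hoxb1, of the fourth hindbrain segment, was not tested and read 128, 52.9 and 183 on epithelium and 54.0, 129 and 32.3 on mesenchyme, with overlap.

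In groups 4 to 8, Hoxc8, a thoracic gene, had the largest negative difference of the 27 (-2.16 ± 0.796, adjusted p = 0.19 in limma). It read 157, 70.9 and 160 on epithelium and 2107, 391 and 257 on mesenchyme, where mesenchyme 1 was the highest array. Without it the difference was -1.27 ± 0.486 (adjusted p = 0.147). Hoxb4 read 164 to 249 on epithelium and 131, 308 and 362 on mesenchyme (-0.31, and -0.73 without mesenchyme 1). Hoxb5 spread within a layer, at 144, 319 and 6.27 on epithelium and 464, 219 and 175 on mesenchyme (-1.39 ± 0.998, and -0.97 without mesenchyme 1). Hoxa5, a gene of lung and diaphragm development, read 2358 to 3307 and 1693 to 2506 (0.48 ± 0.305, and 0.39 without mesenchyme 1), and Hoxb6 293 to 433 and 193 to 254 (0.66 ± 0.373, and 0.59). Hoxc5 read at most 119 on epithelium and 246, 85.9 and 120 on mesenchyme and was below the filter without mesenchyme 1. For Hoxc6, at 149 to 372 and 138 to 245, the sign depended on the probe set (0.41 from the brightest, -0.55 from the brightest of the unique kind, and 0.42 and -0.58 without mesenchyme 1). Hoxa4, Hoxa7 and Hoxb7 were not tested and read at most 133, 115 and 157 on any array.

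In groups 9 to 13, the differences of 4 genes changed sign without mesenchyme 1. Hoxa10, known from the uterus, read 3632, 6876 and 2797 on epithelium and 343, 5506 and 6350 on mesenchyme (0.83, and -0.53 without mesenchyme 1). Hoxd10 read 10490, 7233 and 10413 on epithelium and 462, 10505 and 11646 on mesenchyme (1.25, and -0.26). Hoxa11 read 257 to 350 and 108, 388 and 337 (0.28, and -0.26), and Hoxd11 118 to 307 and 28.6, 216 and 308 (0.64, and -0.23). None of these differences passed the threshold in either fit, with adjusted p between 0.467 and 0.827. Hoxa13, which acts with Hoxd13 in the cloaca, read 660, 242 and 830 on epithelium and 40.8, 246 and 374 on mesenchyme, with overlap (1.56 ± 0.815, adjusted p = 0.351 in limma, and 0.75 ± 0.555, adjusted p = 0.467, without mesenchyme 1). In the remaining group 9 genes the layers overlapped with 6 arrays, with differences of -0.04 for Hoxb9, -0.40 for Hoxc9 and -0.12 for Hoxd9, and of -0.44, -0.72 and -0.56 without mesenchyme 1 (adjusted p between 0.298 and 0.977 in limma over both fits). Hoxd9 read 358 to 516 on epithelium and 255, 660 and 619 on mesenchyme, so that its layers overlapped through mesenchyme 1 alone. Hoxd12 and Hoxc13 were not tested: Hoxd12 read 30.8 to 62.9 on epithelium and 6.75 to 17.8 on mesenchyme, without overlap. Hoxc13, a gene of hair and nail, read 72.0, 19.0 and 16 on epithelium and 363, 14.7 and 15 on mesenchyme, so that mesenchyme 1 alone lay above the filter level.

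**Figure D3:**
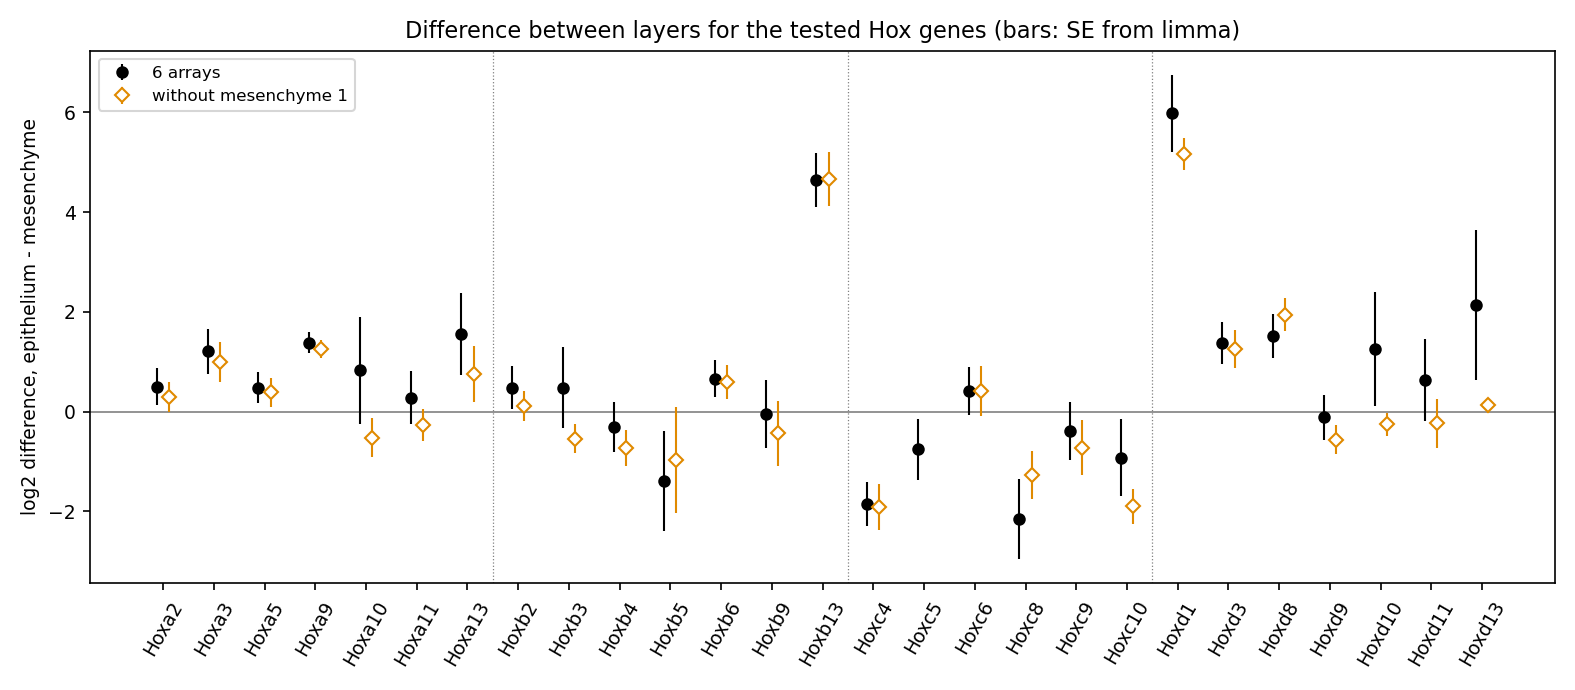
Difference between layers (log2, epithelium minus mesenchyme) for the 27 tested Hox genes, ordered by cluster (dotted lines) and paralogue number, with all 6 arrays (filled) and without mesenchyme 1 (open, 26 genes); bars are standard errors from limma. Hoxd1 (5.98) and Hoxb13 (4.65) stand highest in both, while Hoxa10, Hoxa11, Hoxb2, Hoxb3, Hoxd10, Hoxd11 and Hoxd13 come near or below 0 without mesenchyme 1.

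Mesenchyme 1 had lower signals than mesenchyme 2 and 3 for most Hox genes, by widely differing amounts. It lay below all other 5 arrays for 18 of the 27 tested Hox genes, where it did so for 38.7% of all genes tested, and above all for 3, where it did so for 22.4%. It was over 4-fold below the mean of mesenchyme 2 and 3 for 8 of the 27 (6.02% of all genes) and over 4-fold above for 1, Hoxc8 (8.12% of all genes). The median distance was -0.98 over the 27, -2.62 over 7 tested HoxD genes, -0.73 over 7 of HoxA, -1.13 over 7 of HoxB and -0.03 over 6 of HoxC, and -0.23 over all genes tested.

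By paralogue number, the median distance of mesenchyme 1 was -0.93 in groups 1 to 3, 0.01 in groups 4 to 8 and -2.05 in groups 9 to 13. Hoxd13 lay 6.03 log2 units below mesenchyme 2 and 3 there, a 65.6-fold lower value, Hoxd10 23.2-fold, Hoxa10 16.5-fold, Hoxc10 6.81-fold, Hoxd11 6.14-fold and Hoxa13 5.62-fold lower. Hoxb3 was 8.18-fold and Hoxd1 6.90-fold lower. The size depended on the probe set where a gene had a second one. That of Hoxd13 was 4.33-fold lower (28.6 on mesenchyme 1, and 146 and 214 on mesenchyme 2 and 3). The second set of Hoxb3 was 2.78-fold lower, and that of Hoxa10, below the filter level, 1.44-fold lower. In the other direction stood Hoxc8 (6.37-fold higher) and Hoxc13 (12.3-fold higher), while Hoxb13 (-0.08), Hoxc4 (-0.07) and Hoxa9 (-0.39) lay near the other mesenchymal arrays. All these folds are of signal plus 16, so they are smaller than folds of the printed signals where a signal is low. On mesenchyme 1 the signals of Hoxd11, Hoxa13, Hoxd1 and the second sets of Hoxd13 and Hoxb3 lay below the filter level. So did those of Hoxc13 on mesenchyme 2 and 3, and the sizes for these depend on the offset. The comparison is of 1 array against 2, so there is no test. Liver, heart, pancreas, lung and epidermis markers were high on the same array, and the part of other tissues in these values was not tested.

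**Figure D4:**
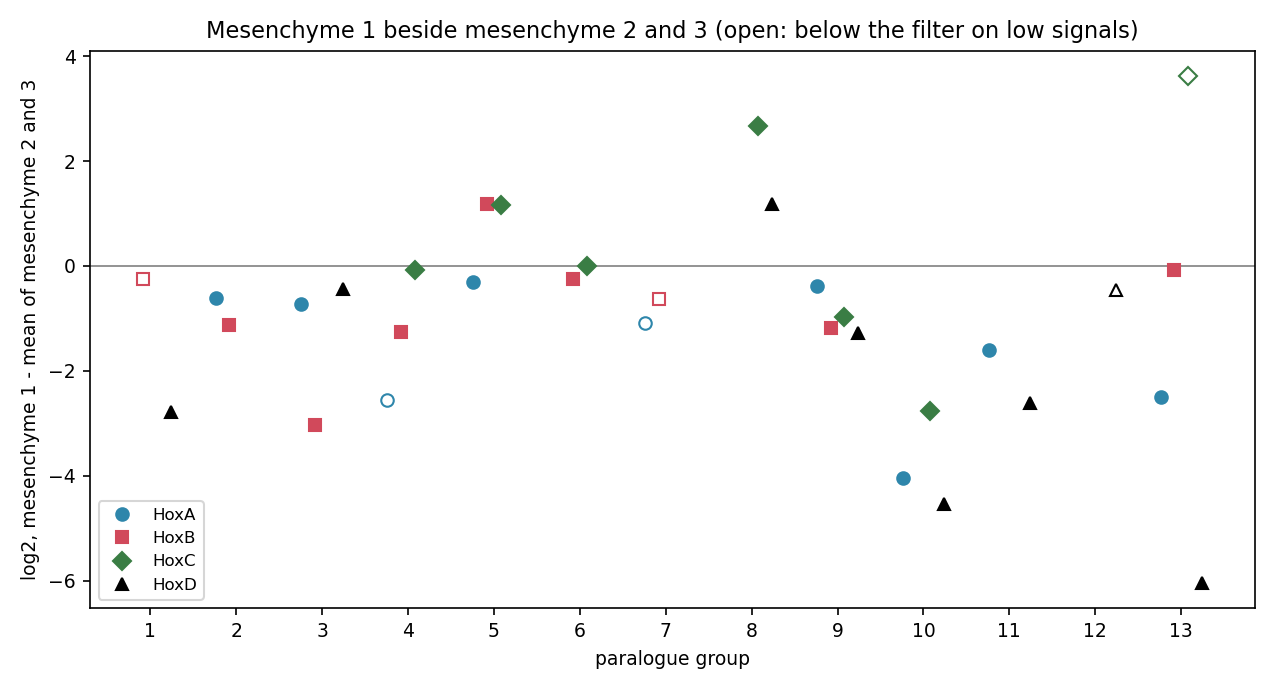
Log2 distance of mesenchyme 1 from the mean of mesenchyme 2 and 3 for each of the 33 Hox genes by paralogue group, with 1 point per gene (marker shape and colour, cluster; open, below the filter on low signals). Most groups lie below 0, Hoxd13 is lowest (-6.03), and Hoxc8 and Hoxc13 are highest (2.67 and 3.62).

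Of all genes tested, 5.98% were called in either direction with 6 arrays and 14.5% without mesenchyme 1, so that counts of 0 or 1 in lists of 7 to 14 genes are near the background. Of 7 tested cofactors of the TALE class (Pbx, Meis and Pknox genes, which bind DNA together with Hox proteins), 0 were called in limma in either fit and 0 had an unadjusted p under 0.05, with medians of 0.44 and, without mesenchyme 1, -0.33. Meis2 read 28946, 22743 and 23855 on epithelium and 5928, 31052 and 29330 on mesenchyme, lower on mesenchyme 1 as Hoxd13 was. Of 9 tested upstream regulators of Hox genes (such as retinoic acid receptors, Gdf11 and Kmt2a), 0 were called in either fit, with an unadjusted p below 0.05 for 2 with 6 arrays and 1 with 5, and medians of 0.74 and 0.18. The widely expressed factor Yy1 read 28793 to 32225 and 21714 to 28996. Cdx2, the caudal factor of intestine, was named after its values were seen: it read 20.1 to 45.3 on 5 arrays and 2017 on mesenchyme 1.

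Of 14 tested Polycomb genes, whose products keep Hox clusters silent, 0 were called in either fit in limma, with 2 at an unadjusted p under 0.05 each time and medians of 0.34 and -0.11. Rnf2, a ubiquitin ligase of the complex that marks histone H2A, had differences of 0.00 and -0.12. Of 14 tested genes flanking the clusters, 0 were called with 6 arrays (1 at an unadjusted p under 0.05) and 1 when mesenchyme 1 was left out (3 having an unadjusted p below 0.05). That gene was Skap2, an adaptor protein gene beside the low-numbered end of HoxA, which read 8308, 16262 and 9675 on epithelium and 7287, 3524 and 2443 on mesenchyme (1.46 with 6 arrays, adjusted p = 0.127, and 1.90 without mesenchyme 1, adjusted p = 0.0101, in limma). Evx1, a homeobox gene beside Hoxa13 and named after its values were seen, stood at a log2 distance of -4.09 on mesenchyme 1 from mesenchyme 2 and 3, and its layer difference was 2.39 with 6 arrays and 1.06 without mesenchyme 1 (adjusted p = 0.276 and 0.0697).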

How the data were processed

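Probe set intensities on a linear scale, 1 per array, were used as deposited. The submitters' processing notes name GCOS, Affymetrix's program. Version and settings: not given in the sources used here. On every array the mean of the deposited signals without the top and bottom 2% was 1500, a common scaling by the authors, and array medians ran from 126 to 254. No detection calls were used, so dim probe sets carry no bound, and the offset understates their differences. Of 45101 probe sets, 64 controls were left out and 34945 of the rest name 1 gene by the platform annotation. The 33 Hox genes matched RefSeq gene identifiers (GRCm38.p6). 6 of them are read from probe sets of the kinds that can match several transcripts: Hoxa4, Hoxa5 and Hoxc6 (_x_at), Hoxa3 (_s_at), Hoxa10 and Hoxb6 (_a_at). The number of arrays limits the precision.

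log2(signal + 16) was quantile normalized, filtered at the 40th percentile and fitted with limma 3.58.1 in R 4.3.3 (lmFit, eBayes with trend, no covariate) over all genes, with Benjamini-Hochberg adjustment. Without mesenchyme 1 all steps were redone on 5 arrays. The code was tested on simulated data. The members, lists and tests were chosen with earlier results of these data known. Values on every array are given for Hox genes past the threshold in either fit and for groups 1 and 13, the largest difference of each cluster is named, and from each list up to 3 called members or the brightest. Alternatives were other offsets, normalizations, filters, probe set rules, priors, array weights, a replicate block, and leaving out arrays in turn.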

Additional observations from a re-analysis of the deposited data

How the results depend on the processing

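Array weights raised the calls over all 13717 genes from 267 to 2598 higher in epithelium and from 553 to 2511 in mesenchyme. Of the 27 Hox genes 8 and 3 were then called, so the rise was not particular to them. Without mesenchyme 1 weights gave 8 and 7 of 26, and no count over all genes was made for alternatives there. With weights and 6 arrays the medians of HoxB, HoxD and groups 9 to 13 were -0.42, 0.40 and 0.011. With the replicate number as a block, 0 genes were called in either direction by limma (418 and 1042 at an unadjusted p under 0.05), 0 of them Hox genes (4 and 2), and the HoxA and HoxB medians were 1.48 and 0.77. The numbers 1 and 2 are shared by both layers, and no label says that they mark the same embryo. Same-numbered arrays deviated together at r = -0.05 and -0.02, and the other pairs at -0.08 to 0.06. With 3 arrays per layer and mesenchyme 1 set apart, these values cannot tell whether a shared number marks the same embryo. With 6 arrays, 1 Hox gene (Hoxc4) was called higher in mesenchyme with the mean of probe sets and with no intensity trend. Without mesenchyme 1, combinations chosen after seeing the data gave 1 Hox gene (Hoxc10) higher in mesenchyme with no normalization, with no filter or with the filter at the 60th percentile. That filter put the medians of HoxC, groups 1 to 3 and groups 4 to 8 at -1.39, 0.49 and 0.48, and the HoxB median was 0.20 with no normalization and 0.22 with unique probe sets.

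Leaving out each array in turn gave 27 to 865 genes higher in epithelium and 115 to 1110 in mesenchyme, 0 to 4 and 0 to 2 Hox genes (2 to 5 and 0 to 3 with mesenchyme 1 left out as well), and medians of 0.39 to 1.37 for HoxA, -0.44 to 0.74 for HoxB, -1.27 to -0.55 for HoxC, 0.13 to 1.53 for HoxD, 0.65 to 1.15 for groups 1 to 3, -0.27 to -0.04 for groups 4 to 8 and -0.26 to 1.34 for groups 9 to 13. The lowest counts with 6 arrays came without epithelium 1 and the highest without mesenchyme 1, which also gave the lowest medians but that of groups 4 to 8. With mesenchyme 1 left out, the lowest counts came without mesenchyme 3 (for genes higher in mesenchyme, also without mesenchyme 2 or epithelium 1) and the highest without epithelium 2. The replicate block could not be fitted without mesenchyme 1.

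Signs turned for genes that were not called. These were Hoxc6 with the mean of probe sets (-0.059) and unique sets (-0.55), Hoxa10 (-0.60), Hoxb3 (-0.52) and Hoxd11 (-0.031) with array weights, and Hoxb9 (0.89) and Hoxd9 (0.20) with the block. Without mesenchyme 1 they were Hoxb2 with no normalization (-0.047) and median centring (-0.073), Hoxc6 with the mean of probe sets (-0.039) and unique sets (-0.58), and Hoxd11 with array weights (0.061). With arrays left out, Hoxa10 ran from -0.53 to 1.55, Hoxa11 from -0.26 to 0.59, Hoxb3 from -0.55 to 1.05, Hoxb9 from -0.48 to 0.44, Hoxd9 from -0.56 to 0.11, Hoxd10 from -0.26 to 2.05 and Hoxd11 from -0.23 to 1.19. With mesenchyme 1 left out as well, Hoxb2 ran from -0.068 to 0.25, Hoxb5 from -1.82 to 0.14, Hoxb9 from -1.01 to 0.14 and Hoxd11 from -0.49 to 0.16. The cause of these changes was not tested.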

Other observations

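Hox probe sets outside the 33 genes were read as values. Hoxa11os, a transcript from the strand opposite Hoxa11, read 1192, 1365 and 778 on epithelium and 53.3, 880 and 1045 on mesenchyme 1, 2 and 3. Mesenchyme 1 was the lowest array for it, as for Hoxa11. Hoxb5os read 346 to 386 on epithelium and 191, 933 and 659 on mesenchyme, so that mesenchyme 2 and 3 lay above the epithelial arrays and mesenchyme 1 below them. Hoxd3os1 read 479, 332 and 310 on epithelium and 1034, 171 and 195 on mesenchyme, highest on mesenchyme 1, while Hoxd3 was lowest there (116). The probe set naming Hoxb7 and Hoxb8 read 85.9 to 177 on epithelium and 78.0 to 114 on mesenchyme, and the brighter one naming Hoxd3 and Hoxd4 read 61.0 to 267 and 82.6 to 150, both with overlapping layers.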
